A study of Homo sapiens with 8 samples.

Results

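CASP14, the gene of the epidermal cysteine protease caspase-14, was examined beside 7 other caspase genes in MIV-Luc breast cancer cells: CASP1, CASP2, CASP4, CASP6, CASP8, CASP9 and CASP10. The 8 genes are the rows of the deposited table that carry these symbols, 1 array feature each, among 20193 gene symbols and 29141 tested features. CASP14 was singled out for its values in these arrays, so its levels and differences are given as a description without a test. The other caspases were taken with it as members of the same gene family.

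MIV-Luc cells are MCF10CA1a cells, a metastatic carcinoma line of the MCF10A mammary series, that carry a luciferase gene. Every group carries it. The cells were stably transduced with a lentiviral pLKO vector that expresses a scrambled hairpin (shSCR) or hairpin #2 against IL13Rα2, and the resistant cells of each transduction were kept as a pool. Each line was mock-treated (− IL-13) or exposed for 16 h to IL-13 at 20 ng/ml (+ IL-13). The 4 groups are written as mock or IL-13-treated cells of the shSCR line and of the shIL13Rα2#2 line, the latter also called knockdown cells. All were grown in the same medium with horse serum, insulin, EGF, hydrocortisone and cholera toxin. Each group had 2 arrays, called A and B here, which the methods describe as biological replicates. Each hairpin is represented by 1 transduced line, so the loss of IL13Rα2 and any other difference between these lines cannot be told apart.

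Caspases are cysteine proteases that cut their substrates after aspartate. Initiators such as caspase-8, caspase-9 and caspase-10 are activated on adaptor complexes and switch on executioner caspases, while caspase-1 and caspase-4 act in inflammasome signaling. Caspase-14 stands apart from both branches: it is found mainly in keratinocytes that undergo terminal differentiation, where it takes part in the breakdown of filaggrin and is not required for apoptosis. IL-13 signals through a receptor of IL4Rα and IL13Rα1 to the transcription factor STAT6, and IL13Rα2 binds the same cytokine as a decoy.

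Because STAT6 is the factor downstream of IL-13, the start of CASP14 is shown for the letters of STAT and AP-1 motifs. The region covers the 250 bases before and 50 bases after the annotated gene start, chr19:15049230-15049529 on the plus strand of GRCh38.p14 as given by RefSeq. Capitals mark the matches to the motifs searched.

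CASP14: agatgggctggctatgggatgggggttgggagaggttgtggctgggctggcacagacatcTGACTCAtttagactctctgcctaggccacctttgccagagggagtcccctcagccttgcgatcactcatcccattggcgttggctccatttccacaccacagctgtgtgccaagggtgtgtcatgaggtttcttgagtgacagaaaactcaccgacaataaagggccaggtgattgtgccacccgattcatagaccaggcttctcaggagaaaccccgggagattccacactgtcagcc

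On both strands the window held 1 match to the AP-1 letters TGANTCA, from -190 to -184 relative to the gene start. Such a match occurred in 7.71% of 35116 promoters of the same length. A STAT6-type pair, TTC and GAA with 4 bases between them, was present in 6.44% of promoters, and a STAT pair with 3 bases between, TTCNNNGAA, in 7.66%. Neither occurred in this window. Of the 6 caspases with an entry in the promoter table, CASP14 and CASP8 held the AP-1 letters and 0 held either STAT version. CASP1 and CASP10 had no entry.

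CASP14 had the third-widest range of group means among all 29141 tested features, 4.02 log2 units or 16.2-fold from the lowest to the highest group. The median feature spanned 0.25 log2 units, and 0.916% of features spanned 1 or more. In mock shSCR cells the log2 expression of CASP14 was 6.41 on array A and 5.94 on array B, a mean of 6.18 ± 0.33 (SD, n = 2). With IL-13 it was 4.59 and 4.88, a mean of 4.74 ± 0.20 (SD, n = 2). These were the lowest arrays of the series, and they lay entirely under the mock shSCR arrays. They were 0.38 and 0.58 log2 units above the median of the negative-control features on their own arrays, which is used here as the background level, while the other 6 arrays were 1.83 to 4.53 above it. Every fold value of CASP14 that involves this group, the 16.2-fold range included, rests on a level near background.

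In mock knockdown cells CASP14 reached 8.67 and 8.84, a mean of 8.75 ± 0.12 (SD, n = 2), the highest values of the series. With IL-13 the knockdown cells gave 7.17 and 6.96, a mean of 7.07 ± 0.15 (SD, n = 2). IL-13-treated knockdown cells thus stood between mock shSCR cells and mock knockdown cells. The order from low to high was shSCR (+ IL-13), shSCR (− IL-13), shIL13Rα2#2 (+ IL-13) and shIL13Rα2#2 (− IL-13), and no neighbours in it overlapped. The closest neighbours were shSCR (− IL-13) and shIL13Rα2#2 (+ IL-13), whose nearest arrays were 0.55 log2 units apart, and the mock shSCR pair had the widest spread. The residual SD of CASP14 within groups was 0.22, larger than that of 78.4% of features.

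The knockdown without IL-13 went with a CASP14 level higher by 2.58 on the log2 scale (standard error 0.18), or 5.96-fold. Among IL-13-treated cells the knockdown line was higher by 2.33 (standard error 0.18), or 5.03-fold, against the near-background shSCR arrays. IL-13 went with a lower level in both lines, by a log2 difference of -1.44 (standard error 0.18) in shSCR cells, 2.72-fold lower, and of -1.69 (standard error 0.18) in knockdown cells, 3.22-fold lower. Set against mock shSCR cells, IL-13-treated knockdown cells were higher by 0.89 (standard error 0.18), or 1.85-fold. The interaction of knockdown and IL-13 was -0.24 (standard error 0.26). It was -0.48 when mock shSCR array A was left out and -0.012 when array B was. The comparisons share arrays with one another. IL-13 in shSCR cells and the knockdown without IL-13 both rest on the mock shSCR arrays.

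Few features of the whole table were called in these comparisons. The shares are given as background only, and no call is given for CASP14, which was chosen for its values. A limma fit over all 8 arrays, with a Benjamini-Hochberg adjusted p under 0.05 and a fold change above 2, called 0.0652% of features for the knockdown without IL-13 and 0.0515% for the knockdown among IL-13-treated cells. It called 0.0583% for IL-13 in shSCR cells, 0.0618% for IL-13 in knockdown cells and 0.154% for knockdown plus IL-13 relative to mock shSCR cells. Groups of 2 arrays that do not overlap, which held for CASP14 in all 5 comparisons, were found for 36.4% to 41.2% of all features.

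**Figure D1:**
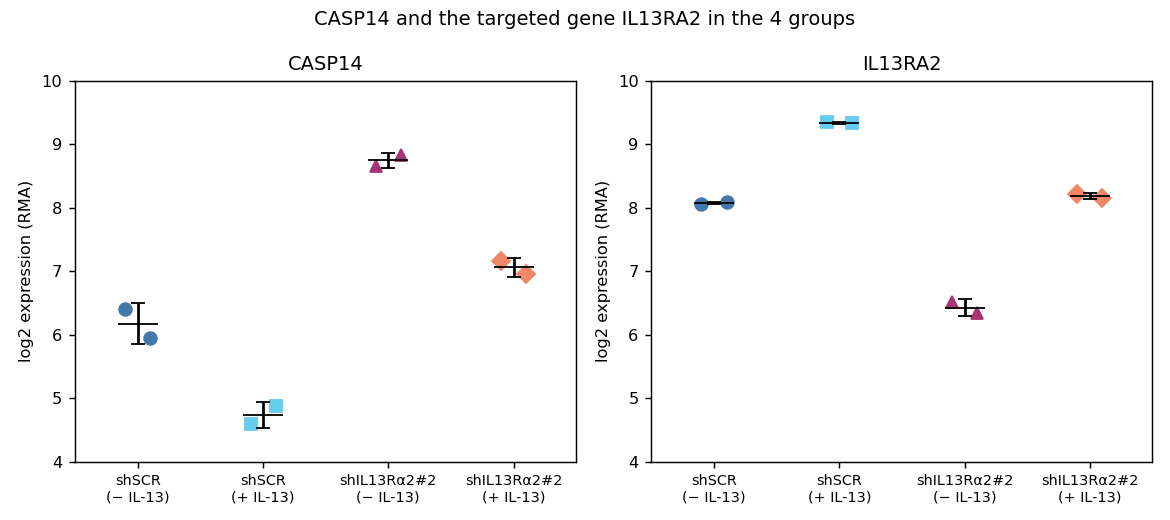
Log2 expression (RMA) of CASP14 (left) and of the targeted gene IL13RA2 (right) in the 4 groups. Symbols are single arrays, horizontal bars are group means and error bars the SD of 2 arrays; CASP14 was lowest in shSCR (+ IL-13) cells, where IL13RA2 was highest, and highest in shIL13Rα2#2 (− IL-13) cells, where IL13RA2 was lowest.

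IL13RA2, the gene aimed at by the hairpin, followed nearly the opposite order. Its log2 level was 8.07 and 8.09 on the mock shSCR arrays and 9.36 and 9.33 after IL-13. In knockdown cells it was 6.52 and 6.34 without IL-13 and 8.23 and 8.15 with it. The group with the most IL13RA2 thus had the least CASP14, and the group with the least IL13RA2 had the most CASP14. The 2 middle groups broke this mirror image: IL13RA2 differed by 0.11 log2 units between mock shSCR cells and IL-13-treated knockdown cells, while CASP14 differed by 0.89. CASP14 was singled out for its values and IL13RA2 is the target of the hairpin, and no relation between them was tested.

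None of the other 7 caspases approached this range. Their group means spanned 0.08 log2 units for CASP4 to 0.32 for CASP9, against 4.02 for CASP14. Limma called 0 of the 7 in each of the 5 comparisons between groups, where it called 0.0515% to 0.154% of all features. For the interaction it also called 0 of the 7, and 0% of all features. At an unadjusted p under 0.05 there were also 0 of 7 in each, where the share of all features was 6.79% and 6.93% for IL-13 in shSCR and in knockdown cells, 9.51% and 7.07% for the knockdown without IL-13 and among IL-13-treated cells, 9.56% for knockdown plus IL-13 and 4.47% for the interaction. The one-way test named in the methods called 0 of 7 in each of the 5 comparisons. At an unadjusted p under 0.05 and a fold change above 2 this test called 0.103% of all features for IL-13 in shSCR cells, 0.127% for the knockdown without IL-13, 0.23% for knockdown plus IL-13, 0.117% for IL-13 in knockdown cells and 0.0961% for the knockdown among IL-13-treated cells. After adjustment it called 0% of all features in each. Over these 35 pairs of gene and comparison, the 95% confidence intervals from limma ran from -0.75 to 0.64 on the log2 scale. The half-width of the interval ran from 0.23 for CASP4 (1.18-fold) to 0.43 for CASP9 (1.35-fold).

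**Figure D2:**
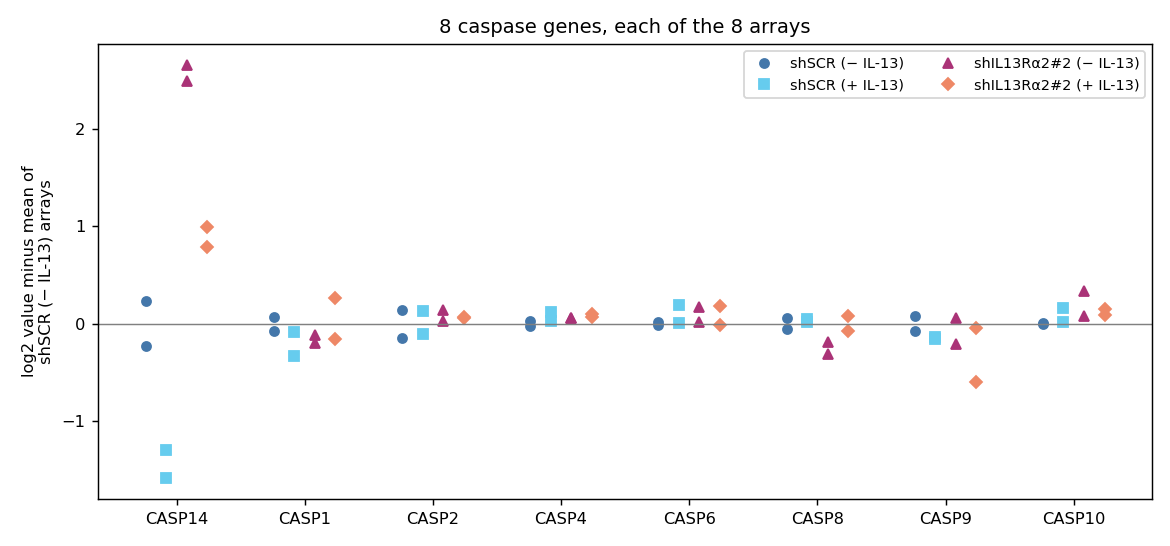
Each of the 8 arrays for the 8 caspase genes, as the log2 value minus the gene's mean over the mock shSCR arrays, with symbols and colors for the 4 groups. CASP14 spread over more than 4 log2 units, and every array of the other 7 genes lay within 1 unit of 0.

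Of the initiators, CASP8, which starts death-receptor apoptosis, came closest to a difference. Its log2 level was 7.35 and 7.46 in mock shSCR cells, 7.10 and 7.22 in mock knockdown cells, 7.45 and 7.43 in IL-13-treated shSCR cells, and 7.34 and 7.49 in IL-13-treated knockdown cells. The mock knockdown arrays were the lowest pair, with a log2 difference of -0.25 (standard error 0.11, limma adjusted p = 0.544) relative to the mock shSCR pair. The IL-13 difference of CASP8 in knockdown cells was 0.25 (standard error 0.11, limma adjusted p = 0.730). Both differences were opposite in sign to those of CASP14, and neither passed the test.

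CASP10, a paralog of CASP8, was 4.19 and 4.18 in mock shSCR cells and 4.27 and 4.52 in mock knockdown cells, a difference of 0.21 (limma adjusted p = 0.628). With IL-13 it was 4.35 and 4.21 in shSCR cells and 4.34 and 4.27 in knockdown cells. CASP10 exceeded the median of the negative-control features, which was 4.12 to 4.38 on the 8 arrays, on 5 of them, so its values lay close to the background. CASP9, the apoptosome caspase, exceeded that median on 7 of the 8 arrays. It was 4.76 and 4.91, 4.67 and 4.70, 4.89 and 4.63, and 4.79 and 4.23 in shSCR (− IL-13), shSCR (+ IL-13), shIL13Rα2#2 (− IL-13) and shIL13Rα2#2 (+ IL-13) cells. Its widest difference was -0.32, between the last and the first group (limma adjusted p = 0.649), with 1 array of the last group lower than all others. CASP2, an initiator activated on the PIDDosome, stayed between 6.75 and 7.04 on all 8 arrays.

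The inflammatory caspases did not pass the test either. CASP1, which matures interleukin-1β, was 5.70 and 5.56 in mock shSCR cells and 5.54 and 5.30 after IL-13. In knockdown cells it was 5.43 and 5.51 without and 5.89 and 5.46 with IL-13. Its IL-13 difference was -0.21 in shSCR cells and 0.20 in knockdown cells, an interaction of 0.41 (standard error 0.23, limma adjusted p = 0.989), with 1 high array in the last group. CASP4, the sensor of intracellular lipopolysaccharide, lay between 9.60 and 9.74, the narrowest range of arrays among the 8 genes. CASP6, an executioner that cuts lamins, lay between 6.81 and 7.02.

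Groups that did not overlap were seen for 3 of the 7 genes with IL-13 in shSCR cells (36.7% of all features), for 4 with the knockdown alone (41.2%), for 2 with IL-13 in knockdown cells (37.4%), for 2 with the knockdown plus IL-13 (40.3%) and for 0 with the knockdown among IL-13-treated cells (36.4%). The counts for the knockdown alone and for IL-13 in shSCR cells were above the share of all features, and the others were below it. With 7 genes these counts were not tested against those shares and are a description. The median log2 difference of the 7 ranged from -0.01 to 0.07 over the 5 comparisons, against -0.01 to 0.02 for all features.

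**Figure D3:**
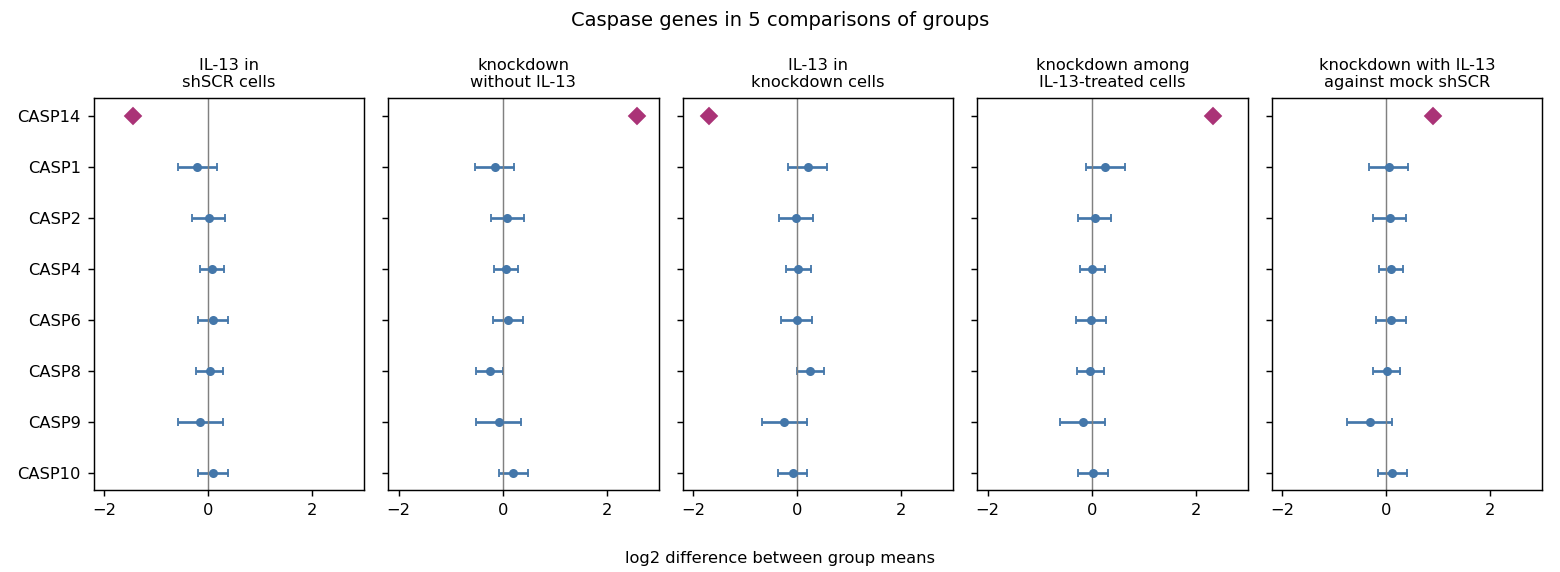
Log2 difference between group means in 5 comparisons for CASP14 (diamond, no interval because the gene was chosen for these values) and the 7 other caspases (circles). Bars are 95% confidence intervals from limma; CASP14 lay at -1.44, 2.58, -1.69, 2.33 and 0.89, and the circles between -0.32 and 0.26.

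The genes around caspase-14 were followed through 6 lists. The first held 13 genes of filaggrin and of the proteases and deiminases of the granular layer. Limma called 0 of the 13 in any comparison, against 0% to 0.154% of all features. At such shares a count of 0 in a list of this size says little. Filaggrin itself (FLG) lay between 3.92 and 4.37 and its relative FLG2 between 3.61 and 4.04, the first above the negative-control median on 3 of the 8 arrays and the second on none. KLK7, a kallikrein known for shedding corneocytes, had 5.51 and 5.28 in mock shSCR cells, 5.14 and 5.39 after IL-13, 5.13 and 4.56 in mock knockdown cells and 4.89 and 4.79 in IL-13-treated knockdown cells. Its knockdown difference without IL-13 was -0.55 (standard error 0.19, limma adjusted p = 0.456). The kallikrein KLK5 had 7.25 and 7.37 in mock shSCR cells, 6.75 and 6.72 after IL-13, 6.59 and 6.74 in mock knockdown cells and 6.44 and 6.70 in IL-13-treated knockdown cells. Its knockdown difference was -0.64 (standard error 0.13, limma adjusted p = 0.216). KLK5 and KLK7 were thus lower where CASP14 was higher in that comparison, without passing the test. With IL-13 in shSCR cells, where CASP14 was lower, they were lower too. The differences were -0.58 for KLK5 (limma adjusted p = 0.405) and -0.13 for KLK7 (limma adjusted p = 0.941).

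Of 24 genes of late epidermal differentiation, limma called 0 in any comparison, against 0% to 0.154% of all features. Involucrin (IVL), loricrin (LOR), the transglutaminase TGM3 and the desmosomal DSG1 and DSC1 were under the negative-control median on all 8 arrays, and 11 of the 24 genes were above it on all 8. The list's median log2 difference was -0.04 with IL-13 in shSCR cells and -0.004 with the knockdown alone, against 0.002 and -0.01 for all features. SPRR1B, a small proline-rich precursor of the cornified envelope, was the list member with the widest range. It lay between 7.42 and 7.48 on the mock shSCR arrays and between 6.29 and 6.62 after IL-13. Like CASP14 it was lower with IL-13 in both lines, by -0.99 in shSCR cells (limma adjusted p = 0.109) and by -0.49 in knockdown cells (limma adjusted p = 0.514). Unlike CASP14 it was lower with the knockdown alone, by -0.46 (limma adjusted p = 0.391). Between IL-13-treated knockdown cells and mock shSCR cells its difference of -0.96 had a limma adjusted p of 0.0467, at a fold change under 2, and that p exceeded 0.05 when any one array was left out (0.0573 to 0.287). DSG1 had the list's second-widest range, 0.58 log2 units, below the negative-control median throughout.

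Among 10 transcription factors of epidermal differentiation limma called 1, TP63, which drives the basal keratinocyte program. The call was for knockdown plus IL-13 relative to mock shSCR cells, where 0.154% of all features were called. TP63 was 5.06 and 4.87 in mock shSCR cells, 6.11 and 6.20 in mock knockdown cells and 6.98 and 6.50 in IL-13-treated knockdown cells. It rose by 1.78 between mock shSCR cells and IL-13-treated knockdown cells (limma adjusted p = 0.00969). This call depended on single arrays and ended without array A or B of the former group or array A of the latter (limma adjusted p of 0.0947, 0.0847 and 0.0514). The TP63 difference with IL-13 was 1.09 in shSCR cells (limma adjusted p = 0.138) and 0.59 in knockdown cells (limma adjusted p = 0.522), opposite in sign to that of CASP14, and with the knockdown alone it was 1.19 (limma adjusted p = 0.0996), of the same sign.

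From the 3 lists of the apoptotic and inflammatory caspase machinery limma called 0 genes in any comparison, against 0% to 0.154% of all features. Among 18 adaptors and platforms the widest ranges were 0.45 log2 units for TRADD, an adaptor of the TNF receptor, and 0.37 for NLRC4, an inflammasome sensor. Among 12 inhibitors and their antagonists they were 0.44 for XIAP, which blocks executioner caspases and caspase-9, and 0.35 for DIABLO, which relieves that block. Among 8 death receptors and ligands TNFSF10 (TRAIL) spanned 0.91. It was 6.20 and 6.21 in mock shSCR cells, 6.43 and 6.49 after IL-13, 6.66 and 6.82 in mock knockdown cells and 7.15 and 7.08 in IL-13-treated knockdown cells. The difference between the last and the first group was 0.91 (standard error 0.11, limma adjusted p = 0.0236), under the 2-fold threshold, and its adjusted p exceeded 0.05 when any one array was left out (0.0542 to 0.187). The receptor TNFRSF1A was lower by -0.50 in the same comparison (limma adjusted p = 0.210).

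Over the 85 list genes the share at an unadjusted limma p under 0.05 was 11.8% for the knockdown alone (9.51% of all features) and 12.9% for IL-13 in shSCR cells (6.79% of all features). It was 12.9% for knockdown plus IL-13 (9.56%) and 9.41% for IL-13 in knockdown cells (6.93%). For the knockdown among IL-13-treated cells it was 8.24% (7.07%), and for the interaction 5.88% (4.47%). The median log2 differences for IL-13 in shSCR cells and for the knockdown alone were -0.11 and -0.10 in the filaggrin list, -0.02 and 0.05 among the transcription factors, -0.03 and -0.07 among the adaptors, -0.05 and 0.01 among the inhibitors, and 0.06 and 0.02 among the death receptors. No set was tested, and the lists were written with earlier results of these arrays known.

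**Figure D4:**
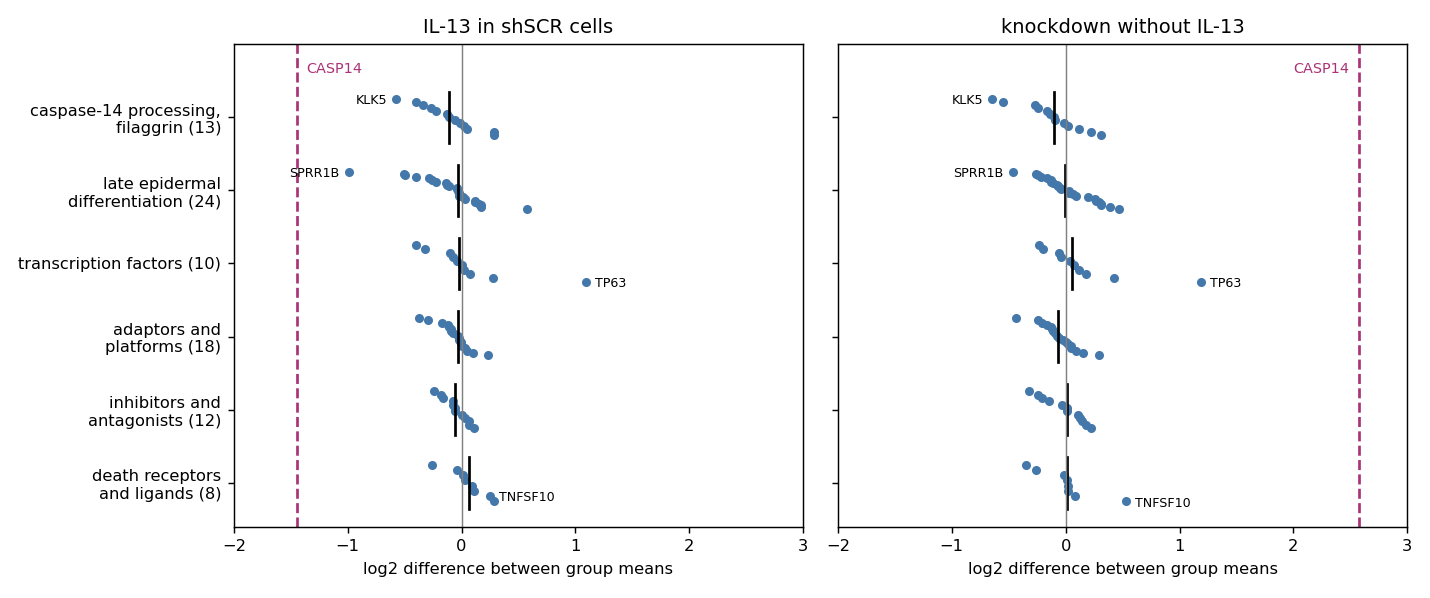
Log2 difference of every gene in 6 lists for IL-13 in shSCR cells (left) and for the knockdown without IL-13 (right), with the number of genes in parentheses, black bars at the list medians and a dashed line at CASP14. CASP14 lay at -1.44 and 2.58, outside the range of all 85 list genes in both panels; TP63, at 1.09 and 1.19, and SPRR1B, at -0.99 on the left, lay farthest out among the list genes.

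The genes nearest to the profile of CASP14 were sought among the 22038 features with a symbol. Each was centered on its own mean over the 8 arrays, and genes with more than 1 feature were left out of the ranking. The measure was the root mean square distance between the centered log2 values, on which a flat profile was 1.46 away from CASP14. The nearest were GPX2, a glutathione peroxidase of epithelia, at 0.61, CEACAM5, an adhesion molecule, at 0.65 and C3orf57, now named SPTSSB, a small subunit of serine palmitoyltransferase, at 0.71. HPGD, which inactivates prostaglandins, followed at 0.76, the adhesion receptor LPHN3 (now ADGRL3) at 0.76 and the protease TMPRSS15 at 0.89. The first 5 had their group means in the same order as CASP14, with a range of 1.97 to 2.39 log2 units against 4.02. TMPRSS15 differed between lines and hardly with IL-13, at 3.55 and 3.51 in shSCR cells and 5.16 and 5.17 in knockdown cells without and with IL-13.

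CEACAM5, the second nearest, had group means of 7.75 in mock shSCR cells, 7.13 after IL-13, 9.34 in mock knockdown cells and 8.39 in IL-13-treated knockdown cells. GPX2 was 5.90 and 5.59, 4.95 and 5.03, and 7.22 and 7.53 in shSCR (− IL-13), shSCR (+ IL-13) and shIL13Rα2#2 (− IL-13) cells, and 6.93 on average in shIL13Rα2#2 (+ IL-13) cells. These genes were picked for likeness on the same arrays, so their likeness is a description. When the 139 features with a symbol and a range of at least 1 log2 unit were ranked by correlation instead, 4 of the 6 were among the first 6. That ranking did not leave out genes with several features.

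**Figure D5:**
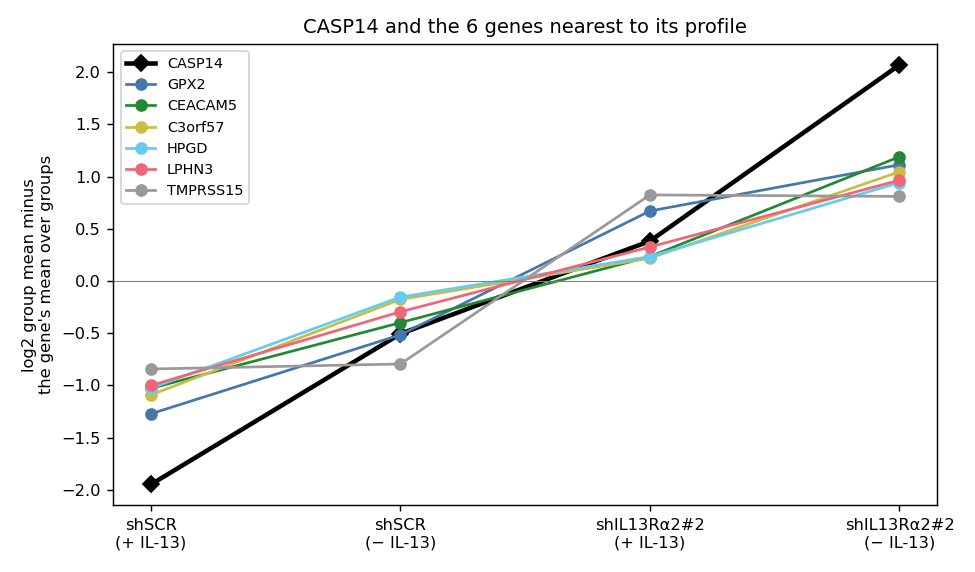
Group means of CASP14 (black diamonds) and of the 6 genes nearest to its profile, on the log2 scale after subtracting each gene's mean over the groups, with the groups in the order of CASP14. All genes but TMPRSS15 had their means in this order from low to high, and CASP14 spanned 4.02 log2 units against 2.39 for GPX2, the widest of the others.

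The 9 markers fixed for basal-like mammary epithelium, among them KRT5, KRT17, CDH1 and EPCAM, were above the negative-control median on all 8 arrays. Of 10 markers of leukocytes, endothelium and fibroblasts, 6 were above it on all 8 arrays (among them CD68, PECAM1 and COL1A1), CD3E on 2, and PTPRC, VWF and PDGFRA on none. CD68 lay between 6.52 and 7.39, and COL1A1 reached 6.29. With the knockdown CD68 differed by -0.46 without IL-13 (limma adjusted p = 0.506) and by -0.47 among IL-13-treated cells (limma adjusted p = 0.673). Both differences were opposite in sign to those of CASP14. For IL-13 in shSCR cells CD68 differed by -0.07 (limma adjusted p = 0.971). PECAM1, an endothelial adhesion molecule, was 8.33 and 8.08 in mock shSCR cells, 7.71 and 7.83 after IL-13, 8.82 and 8.82 in mock knockdown cells and 8.14 and 8.27 in IL-13-treated knockdown cells, lowest and highest in the same groups as CASP14. Its difference was 0.61 for the knockdown without IL-13 (limma adjusted p = 0.217) and -0.43 for IL-13 in shSCR cells (limma adjusted p = 0.559). For the same comparisons the endothelial marker CDH5 differed by 0.22 and -0.03, and VWF by -0.03 and -0.09. The summed level of the endothelial markers, as log2 of the sum, was 8.26 to 8.49 in mock shSCR cells, 7.95 to 8.04 after IL-13, 8.94 to 8.95 in mock knockdown cells and 8.32 to 8.43 in IL-13-treated knockdown cells. For all 10 markers it was 9.28 to 9.44, 9.10 to 9.17, 9.57 to 9.59 and 9.19 to 9.33 in the same order. Both sums were taken over unlogged values, where the brightest gene weighs most, and PECAM1 was the brightest of the 10 markers on every array. CDH5 and VWF were far dimmer. The endothelial sum thus chiefly restates PECAM1 and does not describe the endothelial markers as a set. The part of these markers in the CASP14 differences was not tested. Pearson's r across features was 0.992 to 0.993 between arrays of a group and 0.988 to 0.993 between arrays of different groups, and no array stood apart. In a pool of cells, a change in the share of cells that express CASP14 and a change in the amount of CASP14 RNA per cell cannot be told apart.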

How the data were processed

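Total RNA of the 8 samples was hybridized to Affymetrix GeneChip arrays. The deposited table holds log2 expression for each gene-level feature, computed by the authors with RMA in Affymetrix Expression Console version 1 per the labels (background correction, quantile normalization over the arrays, probe summary), and these were used without further normalization. Such normalization can compress differences of dim features. The number of arrays limits the precision. Columns were placed in groups by construct and treatment in their headings, which carry no replicate numbers.

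Of 33297 features, 4156 control and spike-in features, 2904 of them negative controls, were left out. Group means of all 8 arrays were fitted to the other 29141 in R version 4.3.3 (limma version 3.58.1), and p was adjusted by Benjamini-Hochberg over all of them. A gene was called at an adjusted p under 0.05 and a fold change above 2, for the interaction at the adjusted p alone. For genes with several features the brightest was used. The one-way test named in the methods was run on the 4 arrays of each comparison. The fit was tested on simulated data.

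The caspases and the 6 gene lists, written from general knowledge, were chosen with earlier results of these data known. The genes named are the 8 caspases, list members with an adjusted p under 0.05, the 2 with the widest range per list, the 6 nearest to CASP14 and IL13RA2. FLG, FLG2, IVL, LOR, TGM3, DSC1, ALOX12B and the cell type markers were named in addition, after their values were seen. Alternatives were other tests, thresholds, priors, filters and normalizations, and leaving out each array in turn. Some genes that this rule names are not reported here. Promoter letters were read from RefSeq.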

Additional observations from a re-analysis of the deposited data

Results flagged for a closer look

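The 33 genes looked at were the caspases, the genes nearest to CASP14 and the list members chosen by rule or named. TGM3 and FLG were among those named after their values were seen. The 33 were thus not a set fixed beforehand, and the count over them is a description. Of the 33 genes, 4 had groups of arrays that did not overlap and that differed in opposite directions in the settings compared, however small the gap. For IL-13 in the 2 lines these were XIAP and TGM3, where 4.70% of all features showed such a pattern, and for the knockdown without and with IL-13 they were DSG1 and FLG, against 4.41% of all features. XIAP was 6.97 and 7.11 in mock shSCR cells and 6.96 and 6.97 after IL-13. In knockdown cells XIAP was 7.15 and 6.85 without IL-13 and 7.47 and 7.33 with it. In shSCR cells its nearest arrays, 6.968 and 6.965, were barely apart, and its difference was -0.07 (limma adjusted p = 0.95). Its interaction was 0.47 on the log2 scale (standard error 0.19, limma adjusted p = 0.989). TGM3 had an interaction of 0.37 (standard error 0.22, limma adjusted p = 0.989). DSG1, which like TGM3 lay under the negative-control median on every array, was higher in the knockdown line without IL-13 and lower in it with IL-13, with an interaction of -0.61 (standard error 0.25, limma adjusted p = 0.989). FLG, above that median on 3 of the 8 arrays, had an interaction of 0.37 (standard error 0.17, limma adjusted p = 0.989). None of the 4 interactions passed the test, and 0 of the 8 caspases showed such a pattern.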

How the results depend on the processing

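No paired analysis was possible because the column headings carry no replicate numbers. The count of called caspases other than CASP14 was 0 in every comparison under every alternative run, with each array left out too (0 to 0). In the main fit the group differences of these 7 genes lay between -0.32 and 0.26, well inside the 2-fold threshold. Settings that kept this threshold could hardly call any of them, so the unchanged count there says little. The CASP14 difference kept its direction in all comparisons and moved by less than its replicate SD of 0.22 under both alternative normalizations. With each array left out in turn it ranged from -1.68 to -1.21 for IL-13 in shSCR cells, from 2.34 to 2.81 for the knockdown without IL-13, from -1.79 to -1.58 for IL-13 in knockdown cells, from 2.19 to 2.48 for the knockdown among IL-13-treated cells, from 0.66 to 1.12 for knockdown plus IL-13 relative to mock shSCR cells and from -0.48 to -0.012 for the interaction. Moves above the replicate SD came only from the mock shSCR arrays. Of the 85 list genes, limma without adjustment and limma with a robust, intensity-dependent prior each called 1, TP63, for IL-13 in shSCR cells and for the knockdown without IL-13, where the adjusted test called 0. The share of all features called under these settings was not determined, so these counts cannot be set against it. For the interaction, limma without adjustment gave 5 of the 85 (KLK5, SPRR1B, DSG1, ALOX12B and XIAP), 5.88% against 4.47% of all features. For knockdown plus IL-13 the list count was 0 to 1 with each array left out, and 0 to 0 in the other comparisons. The array number and, for dim features such as CASP10, closeness to background limit what can be seen.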
